A study of Mus musculus with 4 samples.

Results

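The subunits of the 5 oxidative phosphorylation complexes were followed in mouse regulatory T cells (Treg) activated with or without triggering of OX40, a costimulatory receptor of the tumour necrosis factor receptor family. Members were all genes whose platform-annotation symbol names a subunit of complexes I to V (Nduf, Sdh, Uqcr, Cox4 to Cox8 and Atp5 symbols), with assembly factors and pseudogenes left out. The rule used names and no measured value. It gave 78 genes, read by 97 of the 25697 probes on the array, against 16593 genes with a probe of their own. Complex I had 33 of them, complex II 3, complex III 8, complex IV 18 and complex V 16. Each gene was represented by its brightest probe, that is the one with the highest mean signal over all arrays. All are encoded in the nucleus. The probes were taken by these symbols alone, and Sdha, a core subunit of complex II, was not analysed here.

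Spleen Treg were sorted as FoxP3-GFP+ cells from reporter mice on the C57Bl/6 background, aged 8 to 12 weeks, and kept overnight with anti-CD3, which triggers the T-cell receptor. The isotype group received rat IgG and the OX86 group received OX86, an agonist antibody to OX40. Total RNA of 2 samples per group was read on 4 Illumina bead arrays of 1 slide. The labels do not say whether replicates came from separate animals or cultures, and the p-values cover no more than the spread of these samples, which may be technical. No cells without anti-CD3 were among the samples, so the comparison concerns OX40 triggering on top of T-cell receptor activation. Since whole sorted populations were measured, fewer cells of a type and less RNA per cell cannot be told apart.

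Oxidative phosphorylation takes electrons from NADH at complex I and from succinate at complex II, passes them through coenzyme Q, complex III and cytochrome c to oxygen at complex IV, and uses the proton gradient built on the way to make ATP at complex V. Most subunits come from nuclear genes and must be matched with a small set encoded by mitochondrial DNA. Regulatory T cells are known to draw on mitochondrial respiration more than conventional effector T cells, which rely more on glycolysis.

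The promoters of these genes are classically described as carrying sites for NRF1 (nuclear respiratory factor 1), for ETS factors such as GABP, and for YY1. The letters of 3 cores were searched on both strands: GCGCATG for NRF1, CCGGAAG for ETS and ATGGCGG for YY1. The NRF1 and YY1 cores share the letters ATG and can overlap. Windows ran from 250 bases before to 50 after the annotated start in RefSeq's mouse GRCm38.p6 annotation. They were found for 64 of the 78 genes, in 69 windows. One stretch per complex is shown because it carries an NRF1 or ETS core close to the start. Each is the 150 bases just before the start, 5′ to 3′ on the gene's strand, with the core in capitals. The Ndufa6 stretch (chr15:82354292-82354441, minus strand) and the Sdhb stretch (chr4:140961121-140961270, plus strand) hold the NRF1 core on the opposite strand, and the Cox5b stretch (chr1:36691337-36691486, plus strand) holds it in the sense direction. The Uqcr11 stretch (chr10:80406822-80406971, minus strand) holds the ETS core in the sense direction and the Atp5e stretch (chr2:174464102-174464251, minus strand) holds it on the opposite strand.
Ndufa6: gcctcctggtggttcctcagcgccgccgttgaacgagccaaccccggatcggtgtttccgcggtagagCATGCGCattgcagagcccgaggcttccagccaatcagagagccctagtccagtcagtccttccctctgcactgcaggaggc
Sdhb: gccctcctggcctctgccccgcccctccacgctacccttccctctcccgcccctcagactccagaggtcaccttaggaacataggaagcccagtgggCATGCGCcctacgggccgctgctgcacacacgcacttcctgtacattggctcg
Uqcr11: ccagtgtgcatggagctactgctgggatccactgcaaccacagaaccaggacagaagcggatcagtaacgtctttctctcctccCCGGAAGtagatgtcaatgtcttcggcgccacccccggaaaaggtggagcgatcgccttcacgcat
Cox5b: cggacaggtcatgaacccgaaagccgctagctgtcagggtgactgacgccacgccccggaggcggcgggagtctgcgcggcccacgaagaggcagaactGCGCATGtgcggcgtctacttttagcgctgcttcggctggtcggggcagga
Atp5e: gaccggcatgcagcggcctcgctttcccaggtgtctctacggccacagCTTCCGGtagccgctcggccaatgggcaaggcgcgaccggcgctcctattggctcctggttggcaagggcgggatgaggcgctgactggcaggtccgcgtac

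At least 1 of the 3 cores lay in 32 of the 69 windows (46.4%), against 26.7% of the 9776 windows of genes tested on the arrays and 15.0% of all 32851 windows. The NRF1 core was in 12 windows of subunit genes (17.4%, against 6.44% of windows of tested genes). The ETS core was in 16 (23.2%, against 16.5%) and the YY1 core in 11 (15.9%, against 7.39%). By complex, 16 of 32 windows held a core for complex I, 2 of 2 for complex II, 3 of 5 for complex III, 4 of 13 for complex IV and 7 of 17 for complex V. Of the 11 windows with the YY1 core, 9 belonged to complex I genes, and 6 of its 11 matches lay after the start, where the letters can also be those of a start codon. The 16 NRF1 matches had a median position of -48 and the 19 ETS matches of -20, counted in bases from the start. In Uqcrc1, Cox6a1, Atp5g2 and Atp5k an NRF1 match in the sense direction overlapped another on the opposite strand. Both were counted, so the 16 are not all separate sites. None of the 4 windows of the tissue isoforms described below held a core. These matches describe the letters in the windows and show no binding.

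**Figure D1:**
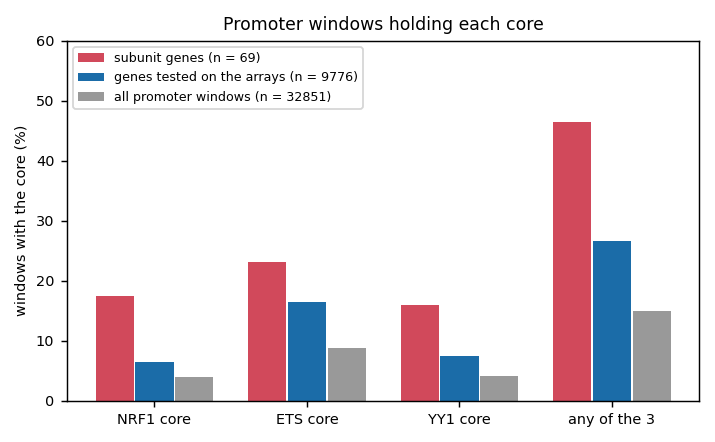
Percentage of promoter windows (vertical axis) that hold the NRF1, ETS or YY1 core, or any of the 3, for subunit genes, for genes tested on the arrays and for all windows. Any core was found in 46.4% of the windows of subunit genes, in 26.7% of those of tested genes and in 15.0% of all windows.

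Most subunits were measurable in these cells. A probe counted as detected on an array where its deposited detection p-value was under 0.05. By this rule 66 of the 78 genes were detected on all 4 arrays, 2 on 3 arrays (Ndufb11 and Cox6b2), 2 on 2 arrays (Uqcrq and Cox8c) and 8 on none. Per array, 70 and 66 genes were detected in the isotype group and 69 and 69 in the OX86 group. The 70 genes detected on at least 2 arrays were tested: 32 of complex I, 3 of complex II, 7 of complex III, 13 of complex IV and 15 of complex V.

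Of the 8 genes detected on no array, 5 encode isoforms of complex IV subunits that are described for particular tissues: Cox4i2 (lung), Cox6a2, Cox7a1 and Cox8b (heart and skeletal muscle) and Cox7b2 (testis). The Cox4i2 probe gave a normalized log2 signal of 5.17 and 5.07 in the isotype group and of 4.93 and 5.09 in the OX86 group. All 4 of these values were at background, as were all 4 of the Cox7a1 probe. The counterparts Cox4i1, Cox6a1, Cox7a2, Cox7b and Cox8a were detected on every array. The other 3 undetected genes encode subunits used in every respiring cell, namely Ndufs1, the largest subunit of complex I, Uqcrfs1, the Rieske iron-sulfur protein of complex III, and Atp5k, the e subunit of complex V. The Uqcrfs1 probe read 5.29 and 4.73 in the isotype group and 5.23 and 5.03 in the OX86 group. A probe at background therefore gives no evidence here that its gene was silent, the tissue isoforms included. The testis isoforms Cox6b2 and Cox8c were detected on 3 and 2 arrays, and their changes of 0.22 and 0.09 had intervals from -0.37 to 0.81 and from -1.09 to 1.28.

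No subunit passed the test between the groups. Signals were background-corrected and quantile-normalized, a step that gives every array the same distribution of values, and limma's moderated test was applied to all 13338 probes detected on at least 2 arrays, with Benjamini-Hochberg adjustment. At an adjusted p under 0.05, 0 of the 70 subunits passed, against 0 of all 13338 probes (0%). In limma's test 0 of the 70 had an unadjusted p under 0.05, against 444 of all probes (3.33%), and the smallest among the subunits was 0.194 for Atp5a1. The same held for all 85 tested probes of these genes, of which 0 passed and whose smallest unadjusted p in limma was 0.171. At a mean log2 signal of 9 or more, where 56 of the 70 subunits lay, such a p was rare. Of all 4231 tested probes there, 5 (0.118%) had an unadjusted p under 0.05 in limma. None of the alternative normalizations and filters that were run made a call at the adjusted p, and without background correction 1 subunit, Atp5a1, had an unadjusted p under 0.05 in limma.

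Changes are given as OX86 minus isotype on the log2 scale, with 95% intervals for each gene alone. They ran from -0.24 to 0.34 over the 70 subunits, with a median of 0.06, while over all tested probes they ran from -1.31 to 1.41 with a median of 0.01. The interval lay within a 2-fold change in either direction for 66 of the 70 subunits, against 77.3% of all probes, and within 1.5-fold for 26, against 18.8%. The contrast was smaller at like signal. At a mean log2 signal of 9 or more it lay within 2-fold for 100% of 56 subunits, against 98% of 4231 tested probes. It lay within 1.5-fold for 42.9% of these subunits, against 38% of these probes. The exceptions to the 2-fold limit were Ndufb11, Uqcrq, Cox8c and Atp5o, whose probes were dim. The median half-width was 0.51 on the log2 scale. These intervals hold for single genes, and with 2 arrays per group a change must be far larger than their half-width to pass after adjustment over all probes, so that 0 calls does not show that the groups were alike.

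**Figure D2:**
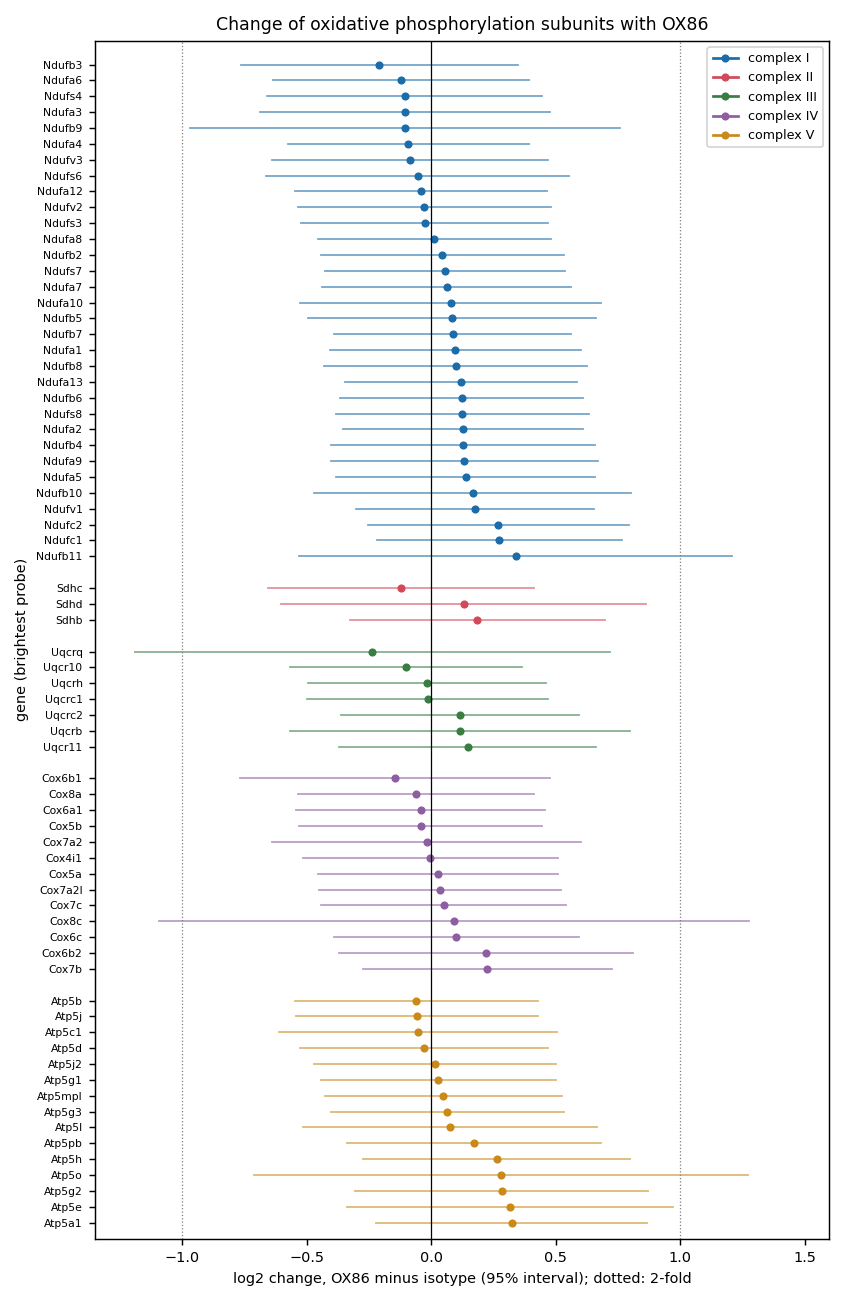
Log2 change of each of the 70 tested subunits (horizontal axis, OX86 minus isotype; points) with its 95% interval from limma (lines), grouped by complex and sorted within it; dotted lines mark 2-fold. All intervals include 0, and 66 of 70 lie between the dotted lines.

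The estimate was above 0 for 44 of the 70 subunits (62.9%), against 51.0% of all tested probes, and under scaling of each array to a common median, which moved the median of all tested probes from 0.01 to 0.12, it was above 0 for 67. No share of all tested probes above 0 is at hand for median scaling, so the 67 cannot be set against one. Relative to the median of all probes, the subunits' median was 0.05 with quantile normalization and 0.07 with median scaling. Both OX86 arrays lay above both isotype arrays for 11 subunits (15.7%), against 13.9% of all tested probes. Both lay below for 1 subunit (1.43%), against 13.1% of all tested probes. At a mean log2 signal of 9 or more, both lay above for 17.9% of subunits, against 11.8% of probes, and below for 1.79%, against 12.3%. The estimate was above 0 for 58.9% of subunits at that signal, against 50.3% of probes. Below that signal these shares were 78.6% and 51.4%. For 4 of the 12 subunits without overlap, the difference between the group means was larger than the gap between the replicates in either group. They were Ndufa13, Ndufc1, Ndufv1 and Uqcr10. The share of all tested probes with such a difference is not given here, so these 4 are not shown to stand out. The 11 were Ndufa2, Ndufa13, Ndufc1, Ndufc2, Ndufv1, Uqcrc2, Cox7b, Atp5a1, Atp5g2, Atp5g3 and Atp5h, and the 1 was Uqcr10. A change of 0.25 or more in size was seen for 8 subunits (11.4%), all of them with the higher mean in the OX86 group, against 28.7% of all tested probes. This count depended on the normalization. Without background correction Atp5a1 alone reached that size (0.28), against 1.93% of all tested probes, while Ndufb11 and Atp5o came to 0.08 and 0.07, Atp5e to 0.16 and the other 4 to between 0.23 and 0.24, and with median scaling 23 subunits reached it, against 34.1%. Of the 70 subunit probes, 56 had a mean log2 signal of 9 or more. Among these bright probes 5 of 56 subunits (8.93%) changed by 0.25 or more, against 7.52% of all bright probes, and among the 14 dimmer subunit probes 3 did (21.4%), against 38.6% of all dimmer probes.

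**Figure D3:**
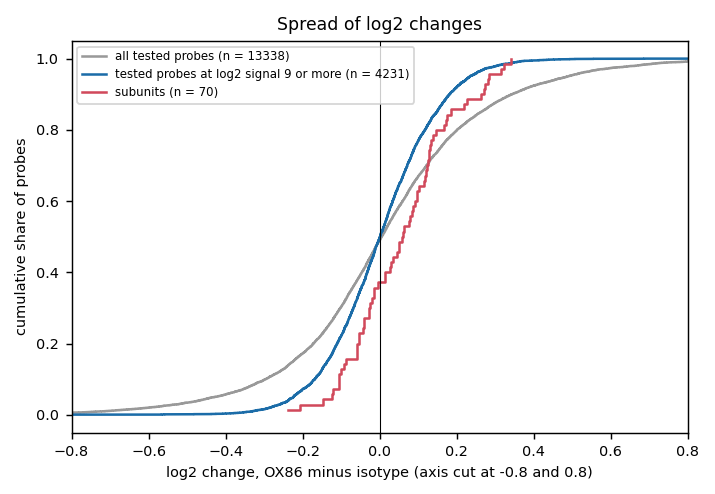
Cumulative share of probes (vertical axis) by log2 change, OX86 minus isotype (horizontal axis, shown from -0.8 to 0.8), for the 70 subunits, for the 4231 tested probes at a mean log2 signal of 9 or more and for all 13338 tested probes. The curve of the subunits is steeper than that of all probes, with quartiles at -0.04 and 0.13 against -0.13 and 0.16. The quartiles of the probes at 9 or more are -0.09 and 0.09.

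Complex I oxidises NADH and is the largest of the 5. Of its 32 tested subunits, 21 had a higher and 11 a lower mean in the OX86 group, the median change was 0.08, and 0 passed the test. Ndufv1, the flavoprotein that takes the electrons of NADH, read 11.31 and 11.29 in the isotype group and 11.55 and 11.40 in the OX86 group. Both OX86 arrays were the higher ones, and the change of 0.18 had an interval from -0.30 to 0.65. Ndufs7, which carries the last iron-sulfur cluster before coenzyme Q, read 11.59 and 11.50 against 11.68 and 11.53. Its groups overlapped and its change was 0.06 (-0.42 to 0.54). Across the 5 tested core subunits that bind the redox centres or line the path to coenzyme Q (Ndufv1, Ndufv2, Ndufs3, Ndufs7 and Ndufs8), a set put together after the values were seen, changes ran from -0.03 to 0.18.

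Of the accessory subunits of complex I, Ndufc1 and Ndufc2 lie next to each other in the membrane arm. Ndufc1 read 10.42 and 10.23 in the isotype group and 10.66 and 10.54 in the OX86 group. Ndufc2 read 11.11 and 10.91 against 11.42 and 11.15. For both genes both OX86 arrays were above both isotype arrays, by a small margin for Ndufc2. Their changes of 0.27 and 0.27 had intervals from -0.22 to 0.77 and from -0.25 to 0.80. The second probe of Ndufc1 moved in the opposite direction. Ndufb11, a small membrane subunit encoded on the X chromosome, had the largest estimate of the complex, 0.34 (-0.53 to 1.21). It read 6.92 and 5.92 in the isotype group and 6.70 and 6.82 in the OX86 group, so that only isotype 2 stood low and isotype 1 was the highest array. Ndufb3, also of the membrane arm, had the lowest estimate at -0.21 (-0.77 to 0.35), from 10.004 and 10.399 against 9.92 and 10.06, with isotype 2 standing high. Ndufa4, first assigned to complex I and now described as a subunit of complex IV, was counted here by its symbol. It read 12.12 and 12.30 against 12.10 and 12.14, with isotype 2 as the highest array, and changed by -0.09 (-0.58 to 0.39), a sign that turned under median scaling.

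Complex II links the tricarboxylic acid cycle to the chain. Its 3 tested subunits had changes from -0.12 to 0.19, with a median of 0.13. Sdhb, the iron-sulfur subunit, read 10.18 and 9.96 in the isotype group and 10.35 and 10.15 in the OX86 group. The groups overlapped in that OX86 2 fell just below isotype 1, and its 3 probes gave changes from 0.04 to 0.19. The membrane anchors Sdhc and Sdhd differed in sign. Sdhc read 9.92 and 10.14 against 10.05 and 9.76, a change of -0.12 (-0.66 to 0.41) that turned sign under median scaling. Sdhd read 8.58 and 7.87 against 8.21 and 8.50, a change of 0.13 (-0.60 to 0.86). In both genes the replicates of a group were farther apart than the group means.

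Complex III passes electrons from coenzyme Q to cytochrome c. Of 7 tested subunits 3 had a higher and 4 a lower mean in the OX86 group, with a median of -0.01. The core proteins Uqcrc1 and Uqcrc2 frame its matrix side. Uqcrc1 read 11.04 and 10.86 in the isotype group and 10.97 and 10.90 in the OX86 group. Uqcrc2 read 12.34 and 12.21 against 12.42 and 12.36. The groups overlapped for Uqcrc1, with a change of -0.01 (-0.50 to 0.47; above 0 under median scaling), and did not for Uqcrc2, with a change of 0.12 (-0.36 to 0.59). Uqcr10, a small accessory subunit, was the member whose OX86 arrays were both the lower ones, at 12.16 and 12.11 against 12.24 and 12.23. Its change of -0.10 (-0.57 to 0.37) was above 0 under median scaling and when its probes were averaged, since its second probe gave 0.13. Uqcr11 read 11.05 and 11.33 against 11.39 and 11.28, with isotype 1 low, and changed by 0.15 (-0.37 to 0.66). Uqcrq, detected on 1 array of each group, had the lowest estimate of all 70 subunits at -0.24 (-1.19 to 0.72). Its values were 6.36 and 5.60 against 5.33 and 6.16, close to background and with the groups overlapping.

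Complex IV, cytochrome c oxidase, reduces oxygen. Its 13 tested nuclear-encoded subunits were split into 7 with a higher and 6 with a lower mean in the OX86 group, with a median of 0.03. Cox4i1, the largest nuclear-encoded subunit and a common marker of mitochondrial content, read 12.41 and 12.31 in the isotype group and 12.50 and 12.22 in the OX86 group. The OX86 arrays enclosed the isotype arrays, and the change of -0.00 had an interval from -0.52 to 0.51. Cox5a read 11.95 and 11.88 against 12.02 and 11.86, and Cox5b, whose promoter stretch with an NRF1 core is shown above, read 12.42 and 12.53 against 12.52 and 12.35. For both the groups overlapped, with changes of 0.03 and -0.04. Cox6c read 12.08 and 11.90 against 12.03 and 12.16, again with overlap, and changed by 0.10 (-0.39 to 0.59). Under median scaling the estimates of Cox4i1 and Cox5b were above 0.

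In the isoform families of complex IV no detected form passed the test. Cox6b1 had the lowest estimate, -0.15 (-0.77 to 0.48), from 11.72 and 12.28 in the isotype group against 11.88 and 11.82 in the OX86 group. Isotype 2 alone was high, and the second probe of the gene gave 0.09. Cox7b had the highest, 0.23 (-0.28 to 0.73), from 6.61 and 6.85 against 6.91 and 6.997, with both OX86 arrays above both isotype arrays. The estimates of Cox6a1, Cox7a2, Cox7a2l (a supercomplex assembly factor once counted as a subunit, kept by its symbol) and Cox8a lay between -0.06 and 0.03, and those of Cox6a1, Cox7a2 and Cox8a turned above 0 under median scaling.

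Complex V makes ATP. Of its 15 tested subunits, 11 had a higher and 4 a lower mean in the OX86 group, with a median of 0.06. Without isotype 1 the higher ones were 8 (median 0.04), and without isotype 2 they were 13 (0.08). Without OX86 1 they were 12 (0.04), and without OX86 2 they were 11 (0.10). With all arrays, 5 of the 8 changes of 0.25 or more in size were among its subunits. In the catalytic head Atp5a1 (the alpha subunit) read 10.84 and 10.45 in the isotype group and 10.97 and 10.97 in the OX86 group. Both OX86 arrays were above both isotype arrays, with isotype 2 the lowest, and the change of 0.32 (-0.22 to 0.87) had the smallest p of all subunits. Atp5b, the beta subunit, with which alpha alternates in the head, read 13.87 and 13.90 against 13.93 and 13.73. Its groups overlapped and its change was -0.06 (-0.55 to 0.43). The signs of alpha and beta differed under quantile normalization but not under median scaling, where beta was above 0. The head also holds 3 stalk subunits. Atp5c1 (gamma) read 11.98 and 12.37 against 12.04 and 12.21, Atp5d (delta) read 11.03 and 11.14 against 11.17 and 10.95, and Atp5e (epsilon) read 8.35 and 7.76 against 8.27 and 8.47. Their changes were -0.05, -0.03 and 0.32 (-0.34 to 0.97), the groups overlapped in all of them, and isotype 2 was high for gamma and low for epsilon. The estimates of Atp5b, Atp5c1 and Atp5d turned above 0 under median scaling.

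The peripheral stalk keeps the head from turning with the rotor. Atp5o, its top subunit (OSCP), read 7.46 and 6.28 in the isotype group and 7.22 and 7.08 in the OX86 group. Isotype 1 was the highest and isotype 2 the lowest array, and the change of 0.28 had an interval from -0.71 to 1.27. Atp5h (subunit d) read 11.13 and 10.79 against 11.16 and 11.29, a change of 0.26 (-0.27 to 0.80), with OX86 1 only just above isotype 1. The membrane rotor is a ring of c subunits, for which Atp5g1, Atp5g2 and Atp5g3 encode the same mature protein. Atp5g1 read 11.09 and 11.20 against 11.17 and 11.17, and Atp5g3 read 14.21 and 14.18 against 14.29 and 14.22. Atp5g2 read 10.36 and 10.85 against 10.92 and 10.85. The changes were 0.03, 0.06 and 0.28 (-0.31 to 0.87), and for Atp5g2 isotype 1 alone was low while isotype 2 lay with the OX86 arrays.

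Relative to each gene's mean over the arrays, the subunits of complexes I, III, IV and V had medians near 0 on every array. The median over the 70 genes was -0.04 on isotype 1, -0.03 on isotype 2, 0.05 on OX86 1 and 0.00 on OX86 2. By complex, apart from complex II with its 3 genes, the array medians lay between -0.08 and 0.07. The median gap between the replicates of a gene was 0.20 in the isotype group and 0.14 in the OX86 group. Over all tested probes these gaps were 0.29 and 0.22. At a mean log2 signal of 9 or more they were 0.181 and 0.127 for the subunits and 0.187 and 0.145 for all tested probes.

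**Figure D4:**
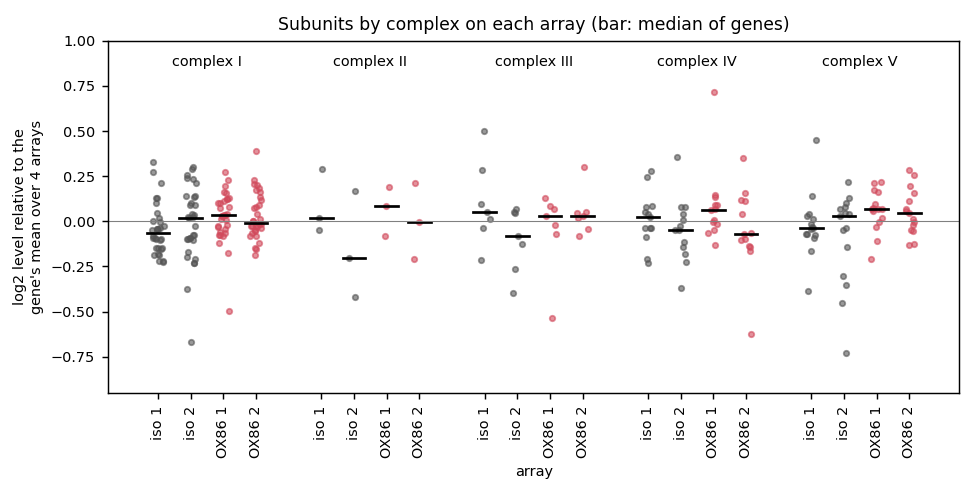
Log2 level of each tested subunit relative to its mean over the 4 arrays (vertical axis; points) on each array (horizontal axis), by complex, with the median of the genes as a bar. For complexes I, III, IV and V all medians lie between -0.08 and 0.07, and 46 of the 70 genes have their highest or lowest point on isotype 2.

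Isotype 2 stood apart from the other arrays over all probes. It had 11800 detected probes against 12890 to 13682 on the others, and its log2 values scattered around the average of the remaining arrays with an SD of 0.44, where each other array had 0.31 to 0.32. Before normalization the brightest subunit probe, that of Atp5g3, read 25441.9 and 11703.4 in the isotype group and 20801 and 20429.2 in the OX86 group. The median signals of all probes were 324.7 and 296.4 against 316 and 321.8. Median scaling moves all log2 values of an array by the same amount, so a gap larger in bright probes than at the median remains. How far this enters the estimates above 0 under that scaling was not tested. After normalization isotype 2 was the highest or lowest array for 46 of the 70 subunits (65.7%), close to the 63.7% of all tested probes. The 8 changes of 0.25 or more in size leaned on it. Without isotype 2 they ran from -0.31 for Atp5o to 0.53 for Atp5g2, 2 of them were below 0 (Atp5o and Ndufb11 at -0.16), and those of Atp5g2 and Atp5o alone were still of that size. Atp5a1 then gave 0.13, Atp5h 0.09, Atp5e 0.02, Ndufc1 0.18 and Ndufc2 0.17. Without isotype 1, in turn, 7 of the 8 were still of that size, and Atp5g2 fell to 0.04 while Ndufb11 and Atp5o came to 0.84 and 0.87. Leaving out OX86 1 or OX86 2 left 5 and 6 of them at that size, all above 0. With isotype 1 left out, 3 of the 70 subunits had an unadjusted p under 0.05 in limma, against 11.5% of all tested probes, and the smallest adjusted p among them was 0.34.

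Dim subunit probes were mostly low on isotype 2. Of the 14 tested subunits below a mean log2 signal of 9, 11 were below their own mean on isotype 2 and 8 had their lowest value there, while 0 had their highest. Of all 9107 tested probes below that signal, 3107 had their lowest value on isotype 2 and 2813 their highest. The median level on isotype 2, relative to the probe's own mean, was -0.24 for the 14 subunits and -0.01 for the 9107 probes. The median difference of isotype 1 minus isotype 2 was 0.53 over these 14 and -0.07 over the 56 brighter subunits. Over all tested probes the same medians were 0.02 below and 0.00 above that signal. Without background correction the 14 dim subunits had a median difference of 0.19, and 11 of them were again below their own mean on isotype 2. Probes of a single gene also differed on this array, at any signal. Of 15 tested probes that were not the brightest of their subunit gene, 11 (73.3%) were lower on isotype 2, relative to their own mean, than the brightest probe, with a median of -0.21, against 52.7% and -0.02 over all genes. These were 7 of the 9 such probes at a log2 signal of 9 or more and 4 of the 6 below it, and 3 of the 11 were probes of Ndufs4. Ndufs4, an accessory subunit of the electron-input arm of complex I, is an example with 4 tested probes. Its brightest probe read 10.97 and 11.38 in the isotype group and 11.10 and 11.04 in the OX86 group, while the next read 11.02 and 10.50 against 10.85 and 11.05. Isotype 2 was the highest array by the first probe and the lowest by the second, with changes of -0.11 and 0.20. In all, 7 of the 11 subunits with several tested probes (63.6%) had probes with changes of opposite sign, against 52.7% of all such genes, and none of these probes passed the test.

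**Figure D5:**
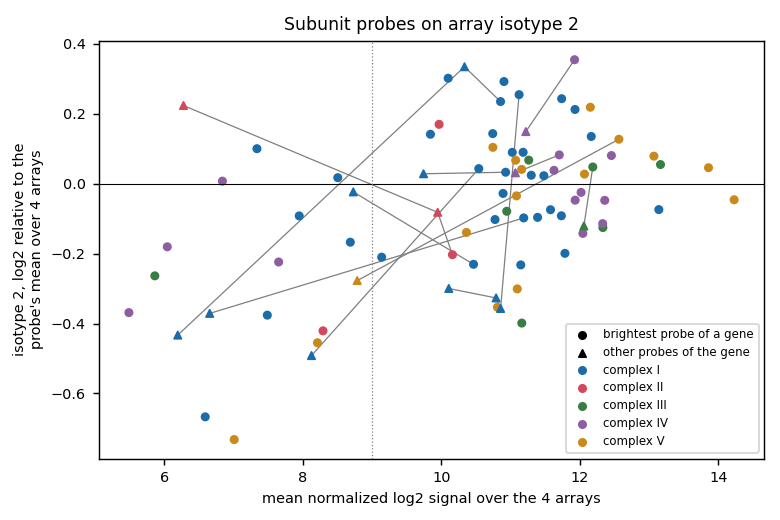
Log2 level on isotype 2 relative to the probe's mean over the 4 arrays (vertical axis) by mean normalized log2 signal (horizontal axis) for the 85 tested subunit probes, with the probes of 1 gene joined by lines and a dotted line at 9. Of the 14 genes whose brightest probe lies left of the line, 11 are below 0.

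Other genes of the pathway were read from lists of known components. None of their tested members passed at an adjusted p under 0.05. Of 36 tested assembly factors, which build the complexes, 20 had a higher and 16 a lower mean in the OX86 group, with a median of 0.01. The genes for cytochrome c, cytochrome c1, coenzyme Q synthesis and the electron-transfer flavoproteins had 6 higher and 7 lower, with a median of -0.03. The tricarboxylic acid cycle and pyruvate dehydrogenase, which supply the NADH and succinate, had 9 higher and 6 lower, with a median of 0.06. Of the 6 tested genes for exchange of ATP, ADP and phosphate, 5 were higher and 1 lower, with a median of 0.17. The regulators of mitochondrial biogenesis and of mitochondrial DNA had 9 higher and 6 lower, with a median of 0.02.

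A single gene of these lists, Coq4, which takes part in coenzyme Q synthesis, had an unadjusted p under 0.05 in limma. That p was 0.0259, and limma's adjusted p was 1.00. It read 6.26 and 5.84 in the isotype group and 6.81 and 6.66 in the OX86 group, a change of 0.69 (0.12 to 1.25) that came to 0.17 without background correction. Both OX86 arrays were above both isotype arrays, and the probe was detected on 1 isotype array and on both OX86 arrays. Etfdh, which feeds electrons from fatty acid oxidation into coenzyme Q, read 8.75 and 8.74 against 8.96 and 8.94, with replicates closer together than the change of 0.20 (0.13 without background correction). The phosphate carrier Slc25a3 read 12.70 and 12.59 against 12.89 and 12.80, and Atpif1, the inhibitor of complex V, read 11.44 and 11.47 against 11.71 and 11.63. In both, the OX86 arrays were the higher ones, with changes of 0.20 and 0.21. Esrra, a nuclear receptor that drives respiratory genes, went the other way at 8.98 and 8.95 against 8.58 and 8.64, with no overlap and a change of -0.35 (-0.22 without background correction). The assembly factors Cox16 and Coa7, for complex IV, had changes of -0.67 and 0.70, which came to -0.17 and 0.25 without background correction. For Coa7 isotype 2 alone was low, at 6.45 against 7.45 to 7.69 on the other arrays. The remaining named genes of these lists were Coq7 (0.77), Twnk (0.43), Ssbp1 (0.35), Mdh2 (0.20), Vdac3 (0.17), Suclg2 (-0.24), Dlat (-0.33) and Tmem70 (-0.43). Among them the groups overlapped for Mdh2 alone. Without background correction Coq7 came to 0.20 and Twnk to 0.10, and the Twnk probe was detected on the OX86 arrays only.

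Markers of the sorted cells were detected, and so were some markers of other spleen cells. All 10 listed regulatory T-cell and T-cell genes were detected on all arrays, and Foxp3, the defining transcription factor, read 12.75 and 12.76 in the isotype group and 12.71 and 12.95 in the OX86 group. Of the probed markers of other spleen cells, 2 of 6 for B cells, 1 of 7 for myeloid cells, 3 of 6 for NK and CD8 T cells and 1 of 4 for red cells and platelets were detected on all arrays. The CD8 T-cell marker Cd8b1 read 9.57 and 9.79 in the isotype group and 9.61 and 9.54 in the OX86 group. Cd4 read 8.72 and 9.14 against 8.72 and 9.03, while Cd8a was detected on no array. Signals of different probes do not rank the amounts of their transcripts. The B-cell marker Ms4a1, detected on 1 isotype array and both OX86 arrays, read 5.79 and 5.15 against 6.38 and 6.18. Its change was 0.81, with an unadjusted p of 0.0267 in limma, and it did not pass after adjustment. The other tested B-cell markers, Cd79a and Cd79b, changed by -0.26 and -0.16. The red-cell marker Hba-a1 read 10.69 and 9.26 against 10.11 and 9.14. The signals of the 4 probed red-cell and platelet markers were summed on the linear normalized scale. The sum was 1795 and 708 in the isotype group and 1210 and 681 in the OX86 group. The replicates thus differed more than the groups. The sum was largely the reading of Hba-a1, since Alas2 and Ppbp were detected on no array and Pf4 on 1. The part of red-cell RNA in the values of the subunits was not tested.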

How the data were processed

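Bead-array signals were deposited as intensity per probe, not normalized, with a detection p-value per probe and array, both deposited by the authors. BeadStudio is named per the submitters' processing notes, and its version is not given in the sources used here. A second deposited table of intensity values by the authors ranked probes as the raw signals did on each array and lay within 1% of their plain quantile normalization for nearly all probes. It served as an alternative.

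Signals were normalized with neqc in limma 3.58.1 (R 4.3.3): normexp background correction with control statistics inferred from detection p-values, offset 16, quantile normalization and log2. Probes with detection p under 0.05 on at least 2 of 4 arrays were tested, OX86 minus isotype, with lmFit and eBayes (2 residual and 3.68 prior degrees of freedom), two-sided, with Benjamini-Hochberg adjustment over all 13338. Quantile normalization removes any shift shared by most probes. The number of arrays limits the precision.

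Probes were named through the platform annotation: 23978 had 1 symbol, 0 had several and 1719 had none. All 78 members matched RefSeq by gene ID with the same symbol. Members and gene lists were chosen with earlier results of these data known, so lists are described by counts and medians without a test. Named genes were the core subunits, the 4 smallest unadjusted p-values per complex, the isoform families, and up to 3 of each related list. The genes named besides were those with a change of 0.25 or more or without overlap, the undetected genes and Ndufs4, chosen after their values were seen. Median scaling, no background correction, the authors' values, other detection filters, averaged probes, a replicate block and leaving out each array were the alternatives.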

Additional observations from a re-analysis of the deposited data

How the results depend on the processing

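No probe passed an adjusted p under 0.05 in limma under any alternative run, with 102 to 1540 probes at an unadjusted p under 0.05, and an adjusted p of at least 0.33, reached with isotype 1 left out. The samples share replicate numbers, but same-numbered samples did not deviate together (correlation 0.07 over tested probes), and with the replicate block 0 probes passed, the smallest adjusted p was 1.00, and every fold change was as without it. Median scaling, which also moved the median of all tested probes to 0.12, gave medians of 0.19 for all subunits and of 0.21, 0.25, 0.16, 0.13 and 0.20 for complexes I to V. Leaving out each array in turn gave medians of 0.04 to 0.06 over all subunits, 0.0235 to 0.0901 for complex I, -0.0147 to 0.30 for complex II, -0.10 to 0.0876 for complex III, -0.0998 to 0.0604 for complex IV and 0.038 to 0.096 for complex V. Of 52 named genes, 13 turned sign under another setting. Median scaling turned 12 of them, to 0.0525 for Ndufa4, 0.0251 for Sdhc, 0.032 for Uqcr10, 0.11 for Uqcrc1, 0.13 for Cox4i1, 0.0883 for Cox5b, 0.10 for Cox6a1, 0.0993 for Cox7a2, 0.0606 for Cox8a, 0.12 for Atp5b, 0.0744 for Atp5c1 and 0.11 for Atp5d. Averaged probes gave 0.0148 for Uqcr10 and 0.0175 for Cox6a1. Cox8c came to -0.0030 without background correction and -0.0029 with the authors' values. Leaving out each array turned 20, with ranges of -0.16 to 0.84 for Ndufb11, -0.0176 to 0.13 for Ndufs7, -0.27 to 0.022 for Sdhc, -0.23 to 0.49 for Sdhd, -0.10 to 0.072 for Uqcrc1, -0.66 to 0.18 for Uqcrq, -0.14 to 0.13 for Cox4i1, -0.0536 to 0.11 for Cox5a, -0.12 to 0.04 for Cox5b, -0.16 to 0.0703 for Cox6a1, -0.43 to 0.13 for Cox6b1, -0.0192 to 0.46 for Cox6b2, -0.25 to 0.21 for Cox7a2, -0.0626 to 0.13 for Cox7a2l, -0.58 to 0.76 for Cox8c, -0.16 to 0.0391 for Atp5b, -0.24 to 0.14 for Atp5c1, -0.14 to 0.0834 for Atp5d, -0.026 to 0.0841 for Atp5g1 and -0.31 to 0.87 for Atp5o. The cause was not tested. A lone array left in a group was assumed to vary like the other group. Probes near background, such as those of Uqcrq, Cox6b2 and Cox8c, limit what can be said of their genes.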
